A study of Mus musculus with 9 samples.

Results

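The genes described here are the 4 myogenic regulatory factors (Myf6, Myod1, Myog and Myf5) and the 3 MEF2 genes Mef2a, Mef2c and Mef2d. They were chosen by gene symbol, with earlier results of these data known. These 7 are among 19335 features whose read counts were deposited for muscle libraries of C57BL/6J mice. In 3 libraries the mice had a high-fat diet (HFD) with 60% of its energy from fat and L-carnitine in the drinking water at 100 mg per kg body weight per day. A further 3 libraries came from mice on the HFD alone, and 3 control libraries from mice on a diet with 10% of energy from fat. All were wild type, were assigned to a group at 9 weeks of age, had 2 weeks to acclimatise, were fed for 8 weeks and were fasted for 6 h before sampling. The labels do not name the muscle and do not say that each library is a separate mouse, so the p-values measure the spread between libraries, part of which may be technical. Each gene was compared between HFD plus carnitine and HFD, between HFD plus carnitine and control, and between HFD and control.

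The myogenic regulatory factors are basic helix-loop-helix proteins that pair with E proteins such as Tcf3, bind E-boxes (the sequence CANNTG) and switch on muscle genes. Myf5 and Myod1 act in satellite cells (the stem cells of muscle) and myoblasts, Myog drives their differentiation, and Myf6, also called MRF4, is the myogenic factor best expressed in adult myofibres. MEF2 proteins are MADS-box factors that bind A/T-rich sites beside E-boxes in muscle genes. Class II histone deacetylases hold them inactive, and calcium-dependent kinases release them.

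The members of each family resemble each other in sequence, which is shown here because reads from near-identical genes can be assigned to the wrong copy. The lines below give 90 coding bases of each myogenic factor, 5′ to 3′, which encode the loop and the last helix of the helix-loop-helix, from GENCODE M21 transcripts. Capitals mark the 58 of 90 bases that are identical in all 4 genes.
Myf6: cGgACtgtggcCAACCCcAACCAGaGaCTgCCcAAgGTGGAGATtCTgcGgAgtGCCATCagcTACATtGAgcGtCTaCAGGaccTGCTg
Myod1: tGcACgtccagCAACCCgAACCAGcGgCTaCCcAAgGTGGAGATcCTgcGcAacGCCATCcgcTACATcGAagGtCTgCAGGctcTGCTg
Myog: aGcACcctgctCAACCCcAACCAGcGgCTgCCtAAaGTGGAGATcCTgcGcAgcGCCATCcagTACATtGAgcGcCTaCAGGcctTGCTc
Myf5: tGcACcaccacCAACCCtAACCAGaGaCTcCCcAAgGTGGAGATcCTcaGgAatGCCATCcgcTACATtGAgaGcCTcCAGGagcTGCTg
The next lines give the first 90 coding bases of the MEF2 genes, the start of the MADS-box, with capitals for the 63 bases shared by all 3.
Mef2a: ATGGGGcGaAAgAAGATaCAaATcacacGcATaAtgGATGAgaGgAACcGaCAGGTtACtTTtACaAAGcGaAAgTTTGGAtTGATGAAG
Mef2c: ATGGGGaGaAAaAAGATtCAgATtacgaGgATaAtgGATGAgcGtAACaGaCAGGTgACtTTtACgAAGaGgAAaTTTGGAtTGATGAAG
Mef2d: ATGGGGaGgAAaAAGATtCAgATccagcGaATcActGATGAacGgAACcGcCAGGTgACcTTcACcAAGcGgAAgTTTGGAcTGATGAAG
Identity between pairs over these stretches was 72.2% to 80.0% in the myogenic factors and 76.7% to 82.2% in the MEF2 genes. Over all annotated transcripts at full length, untranslated parts included, the longest run of identical bases was 26 bases for Myod1 and Myf5. In the MEF2 genes it was 28 bases for Mef2c and Mef2d.

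Myog is itself bound by both families, and its promoter carries the sites of each. The 300 bases below run from 250 before to 50 after the start site at chr1:134289754-134290053 on the plus strand (RefSeq, GRCm38.p6). Capitals mark a pair of E-boxes, CACATG at -138 and CAGTTG at -12 from the start site, and the MEF2 site CTATATTTA at -64. The MEF2 site was searched as CTA, 4 bases of A or T, and then TA; both strands were read, and the marked motifs do not overlap.
Myog promoter: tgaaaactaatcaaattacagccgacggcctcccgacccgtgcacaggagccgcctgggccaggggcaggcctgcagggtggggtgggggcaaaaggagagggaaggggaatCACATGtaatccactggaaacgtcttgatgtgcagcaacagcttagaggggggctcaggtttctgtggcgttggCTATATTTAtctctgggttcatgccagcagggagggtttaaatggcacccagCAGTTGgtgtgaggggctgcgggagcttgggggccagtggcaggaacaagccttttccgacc
An E-box was present in 72.3% of the 32851 mouse promoters of the same length, a MEF2 site in 3.60%, and both in 2.72% (895 promoters). A match is a description of the letters in this window and shows no binding.

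In the file's coordinates (GRCm39 is the mouse build named in the submitters' processing notes), Myf5 (chr10:107318769-107321995) and Myf6 (chr10:107328714-107330598) lie side by side on the minus strand, 6718 bp apart. Myod1 is at chr7:46025898-46028523 and Myog at chr1:134217727-134220286, both on the plus strand. Mef2c spans chr13:83652153-83815199 on the plus strand. No annotated gene lies on the opposite strand of these 5 genes. Mef2d (chr3:88049679-88079393, plus strand) shares 531 bp of exon with the antisense lncRNA 1700113A16Rik, and Mef2a (chr7:66880911-67022606, minus strand) shares 302 bp of exon with Lysmd4. The libraries were made with a stranded kit, but no source used here states the strand setting at which reads were counted. Reads in the shared exons may thus not be separable. Whether the counts of a member are reads of its own strand was not tested, which holds for every level given below. Over all 9 libraries 1700113A16Rik had 9411 counts and Mef2d 896, while Lysmd4 had 2269 and Mef2a 184. The nearest neighbours that do not overlap a member had between 1 and 830 counts over all 9 libraries, with Adora1 beside Myog the highest.

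The libraries held 2315985 to 3773649 counts, so a count of 3 corresponded to 0.795 to 1.30 CPM, the count scaled to the library total. The share of counts on the 9246 features with no annotated gene on the opposite strand differed between libraries. It was 13.1%, 8.65% and 9.32% in the HFD plus carnitine libraries, 11.8%, 13.1% and 14.2% in the HFD libraries, and 14.5%, 9.55% and 13.0% in the control libraries. HFD plus carnitine replicates 2 and 3 and control replicate 2 were thus the lowest. With the usual TMM scaling, the median log2 fold change of such features was -0.32 for HFD plus carnitine over HFD, where that of all 7523 tested features was -0.01. For HFD plus carnitine over control it was -0.20 against a median of -0.00 for all, and for HFD over control 0.12 against 0.00. The tissue label was checked on 12 myofibre markers, which were all detected and, scaled by library total, summed to 40706 to 51948 CPM in HFD plus carnitine, 65674 to 82458 CPM in HFD and 53023 to 86187 CPM in control libraries.

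Levels between genes were compared per length, as FPKM, the fragment count corrected for gene length and library total. Myf6 was the most abundant member, with a median of 10.7 FPKM and a range of 3.76 to 16.1 over the 9 libraries. Mef2d came next at a median of 5.98 FPKM (range 2.96 to 9.48); these ranges overlap, but Myf6 was above Mef2d within each of the 9 libraries. Mef2c had a median of 1.72 FPKM (range 0.330 to 2.19), which lay wholly below that of Mef2d. The ranges of Myod1 (median 0.847 FPKM, range 0 to 4.13) and Mef2a (median 0.530 FPKM, range 0.0786 to 0.832) overlapped each other and that of Mef2c. Within libraries, Mef2c was above Mef2a in all except control replicate 2 (0.330 against 0.471 FPKM). Myog and Myf5 were listed at 0 in more libraries than not.

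**Figure D1:**
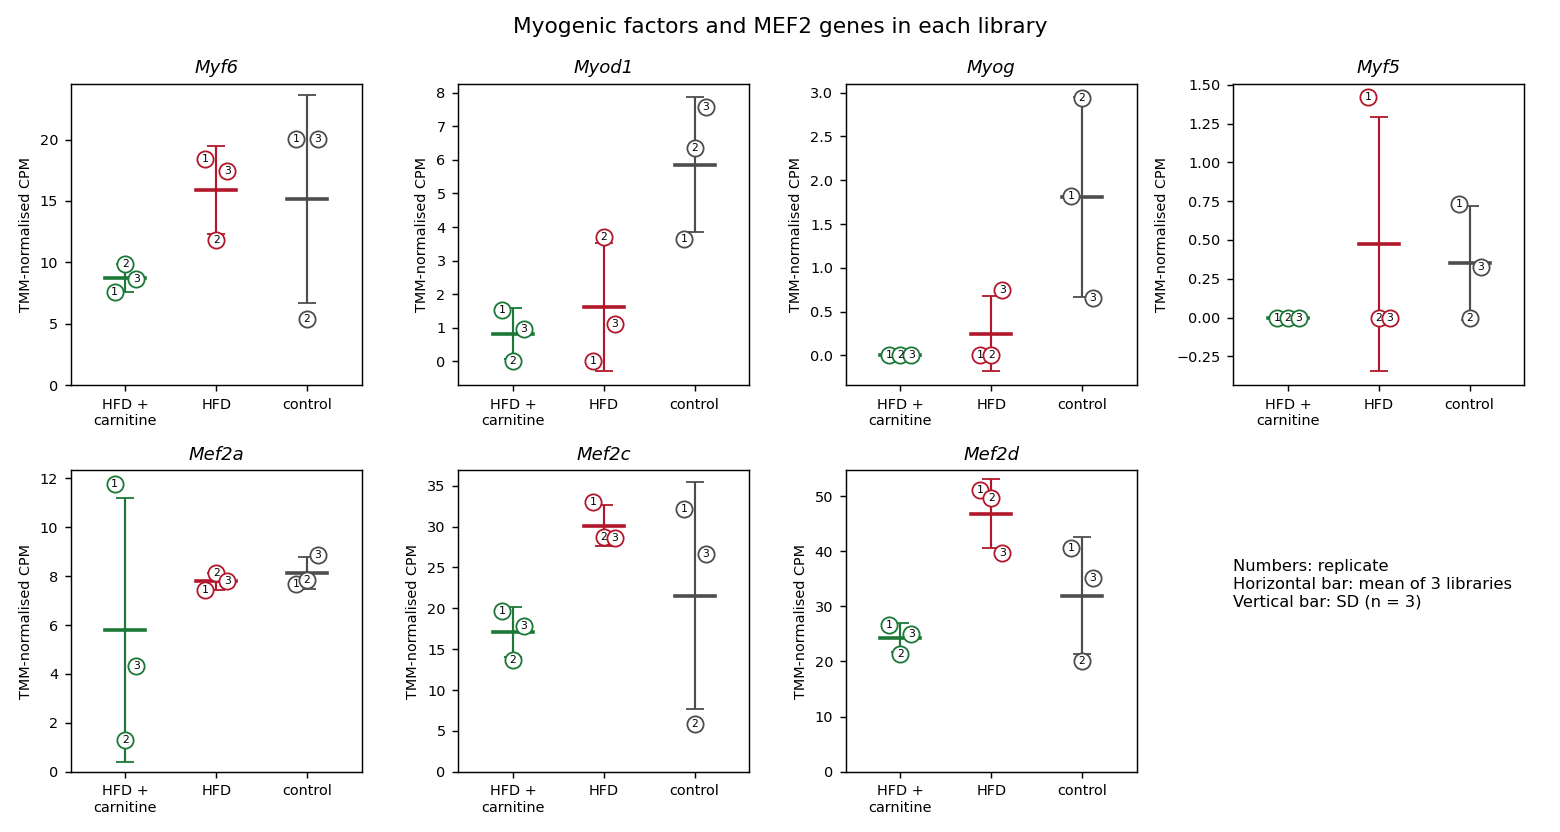
Level of each gene in TMM-normalised CPM (y axes start at or below 0) for HFD plus carnitine, HFD and control; numbered circles are libraries, horizontal bars are means and vertical bars SDs (n = 3). Myf6, Mef2c and Mef2d sit lower in all 3 HFD plus carnitine libraries than in any HFD library, control replicate 2 is low in the same 3 genes, and Myog and Myf5 have 0 counts in every HFD plus carnitine library.

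Of the 7 genes, 5 had enough counts to be tested; Myog and Myf5 did not pass the filter on low counts. None of the 5 passed an adjusted p of 0.05 in edgeR's quasi-likelihood test in any comparison. The share of all tested features that passed was 0.0532% for HFD plus carnitine against HFD, 0.425% for HFD plus carnitine against control, 0.0532% for HFD against control and 0.359% for the 3 groups at once. At an unadjusted p below 0.05 HFD plus carnitine against HFD had 1 member (Mef2d; 12% of all tested features), HFD plus carnitine against control 1 (Myod1; 10.4%), HFD against control 0 (6.31%) and the 3 groups at once both of these genes (11.2%). Limma-voom called 0 members as well in each of these tests. DESeq2 also called 0, but gave an adjusted p for only some of the 5: Mef2c and Mef2d in both comparisons with carnitine, these and Myf6 over the 3 groups, and all but Myod1 in HFD against control.

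Myf6, the adult myofibre factor, had 20, 23 and 18 counts in the HFD plus carnitine libraries, 52, 51 and 47 in the HFD libraries, and 55, 11 and 61 in the control libraries. In TMM-normalised CPM these are 7.58, 9.85 and 8.65 with HFD plus carnitine, 18.4, 11.8 and 17.5 with HFD, and 20.08, 5.38 and 20.06 in controls. The HFD plus carnitine libraries were all below the HFD libraries, and the controls split into 2 high libraries and 1 that was the lowest of all 9. The mean was 8.70 ± 1.13 CPM in HFD plus carnitine, 15.9 ± 3.56 in HFD and 15.2 ± 8.48 in control (SD, n = 3 each). The log2 fold change of HFD plus carnitine over HFD was -0.86 (SE 0.47, edgeR adjusted p = 0.469). It was -0.82 (SE 0.47, adjusted p = 0.574) over control, and 0.04 (SE 0.45, adjusted p = 0.999) for HFD over control. In bulk tissue, fewer cells of a type and less RNA per cell cannot be told apart, for this gene as for those that follow.

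Myod1, the factor of activated satellite cells and, in adult muscle, of fast fibres, was close to the counting limit. It had 4, 0 and 2 counts in HFD plus carnitine, 0, 16 and 3 in HFD, and 10, 13 and 23 in control libraries. All 3 HFD plus carnitine libraries lay below all 3 controls, and 1 HFD library reached the control range. The mean level was 0.826 ± 0.767 CPM with HFD plus carnitine, 1.61 ± 1.91 CPM with HFD and 5.86 ± 2.00 CPM in controls (SD, n = 3 each). The log2 fold change of HFD plus carnitine over control was -2.74 (SE 1.14), with an unadjusted p of 0.0234 and an adjusted p of 0.374 in edgeR. HFD over control gave -1.76 (SE 1.02, adjusted p = 0.866) and HFD plus carnitine over HFD -0.98 (SE 1.17, adjusted p = 0.784). The last sign rests on HFD replicate 2: without it the log2 fold change was 0.57. HFD over control was -3.30 without HFD replicate 2 (unadjusted p = 0.0291, adjusted p = 0.842) and -1.24 without HFD replicate 1. Control replicate 2, low for Myf6 and Mef2c, was not low for Myod1, at 6.36 CPM.

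Myog, the factor of differentiating myoblasts, had 0 counts in each HFD plus carnitine library, 0, 0 and 2 in HFD libraries, and 5, 6 and 2 in controls. Every control library held counts, while the gene was seen in only 1 of the 6 HFD libraries with or without carnitine. Pooled over libraries, control was at 3.99 times the level that a floor of 3 counts over the HFD plus carnitine group would give. That figure takes the 13 control counts as exact, so it is not an interval bound. HFD over control was a ratio of 0.138, with a 95% counting interval of 0.0151 to 0.610. This interval covers counting error within these libraries only. With no filter on low counts, the adjusted p of Myog was 0.620 for HFD plus carnitine against control and 0.864 for HFD against control.

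Myf5, which marks satellite cells, had 7 counts in all. There were 0 in the HFD plus carnitine libraries, 4, 0 and 0 in HFD, and 2, 0 and 1 in controls, so a difference was not detectable at this depth. The satellite cell markers beside it were sparse too. Their sum over 6 genes, scaled by library total, was 0.862 to 1.58 CPM in HFD plus carnitine, 5.93 to 10.97 CPM in HFD and 3.02 to 5.37 CPM in control libraries. Pax7, the defining marker, was at 0 in 5 of 9 libraries, with 4 counts summed over HFD plus carnitine, 8 over HFD and 0 over control. Most of the sum came from the cadherin gene Cdh15, with 4 counts in HFD plus carnitine, 54 in HFD and 32 in control. Myf5 is one of the 6, and the part of the satellite cell share in the levels of Myod1 and Myog was not tested.

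Mef2d, the most abundant MEF2 gene, came closest to the threshold. It had 70, 50 and 52 counts in HFD plus carnitine, 144, 214 and 107 in HFD, and 111, 41 and 107 in control libraries. On the TMM scale these are 26.5, 21.4 and 25.0 CPM with HFD plus carnitine, 51.1, 49.7 and 39.7 CPM with HFD, and 40.5, 20.1 and 35.2 CPM in controls. The HFD plus carnitine and HFD libraries did not overlap, while the control libraries reached from below the lowest HFD plus carnitine library to within the HFD range. HFD plus carnitine averaged 24.3 ± 2.63 CPM, HFD 46.8 ± 6.18 CPM and control 31.9 ± 10.6 CPM (SD, n = 3 each). The log2 fold change of HFD plus carnitine over HFD was -0.94 (SE 0.32) with an unadjusted p of 0.00627, rank 183 of the 7523, and an edgeR adjusted p of 0.256. For HFD over control it was 0.55 (SE 0.31, adjusted p = 0.865), and for HFD plus carnitine over control -0.40 (SE 0.32, adjusted p = 0.735).

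The antisense neighbour 1700113A16Rik went the other way. It had 406, 501 and 502 CPM in HFD plus carnitine, 376, 315 and 333 CPM in HFD, and 292, 450 and 359 CPM in control libraries. It was higher in all 3 HFD plus carnitine libraries than in any HFD library, as were 10.2% of tested features, with a log2 fold change of 0.46 (SE 0.23, edgeR adjusted p = 0.423). Counts on the lncRNA per count on Mef2d averaged 19.6 ± 4.07 in HFD plus carnitine, 7.36 ± 1.01 in HFD and 13.3 ± 8.06 in control libraries (SD, n = 3 each), and in control replicate 2 the ratio was 22.4. Both genes' counts include a shared exon, and the part of the lncRNA in the Mef2d counts was not tested.

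Mef2c, which in adult muscle serves sarcomere genes, has no such overlap and gave a like order. It had 52, 32 and 37 counts in HFD plus carnitine, 93, 124 and 77 in HFD, and 88, 12 and 81 in control libraries. The TMM-scaled levels were 19.7, 13.7 and 17.8 CPM with HFD plus carnitine, 33.0, 28.8 and 28.6 CPM with HFD, and 32.1, 5.87 and 26.6 CPM in controls. HFD plus carnitine was below HFD in every library, and control replicate 2 was again the lowest of the 9. Means were 17.1 ± 3.07 CPM for HFD plus carnitine, 30.1 ± 2.48 CPM for HFD and 21.5 ± 13.8 CPM for control (SD, n = 3 each). HFD plus carnitine over HFD gave a log2 fold change of -0.82 (SE 0.42, edgeR adjusted p = 0.446). HFD plus carnitine over control gave -0.35 (SE 0.43, adjusted p = 0.850), which was 0.04 without control replicate 1, and HFD over control gave 0.46 (SE 0.41, adjusted p = 0.933).

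Mef2a is expressed in many tissues and is read here at low depth. It had 31, 3 and 9 counts in HFD plus carnitine, 21, 35 and 21 in HFD, and 21, 16 and 27 in control libraries. The HFD plus carnitine libraries lay on both sides of the others, which were close together. In TMM-scaled CPM the mean was 5.79 ± 5.39 for HFD plus carnitine, 7.79 ± 0.338 for HFD and 8.12 ± 0.657 for control (SD, n = 3 each). The log2 fold change of HFD plus carnitine was -0.41 over HFD (SE 0.59, edgeR adjusted p = 0.832) and -0.47 over control (SE 0.59, adjusted p = 0.858); without HFD plus carnitine replicate 2 these were 0.04 and 0.0054. HFD over control gave -0.06 (SE 0.57, adjusted p = 0.999). Lysmd4 on the other strand had 45.9, 116 and 134 CPM in HFD plus carnitine, 90.8, 68.9 and 113 CPM in HFD, and 116, 63.6 and 96.0 CPM in control libraries. In HFD plus carnitine it was lowest where Mef2a was highest, with 3.90, 90.3 and 31.0 Lysmd4 counts per Mef2a count.

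**Figure D2:**
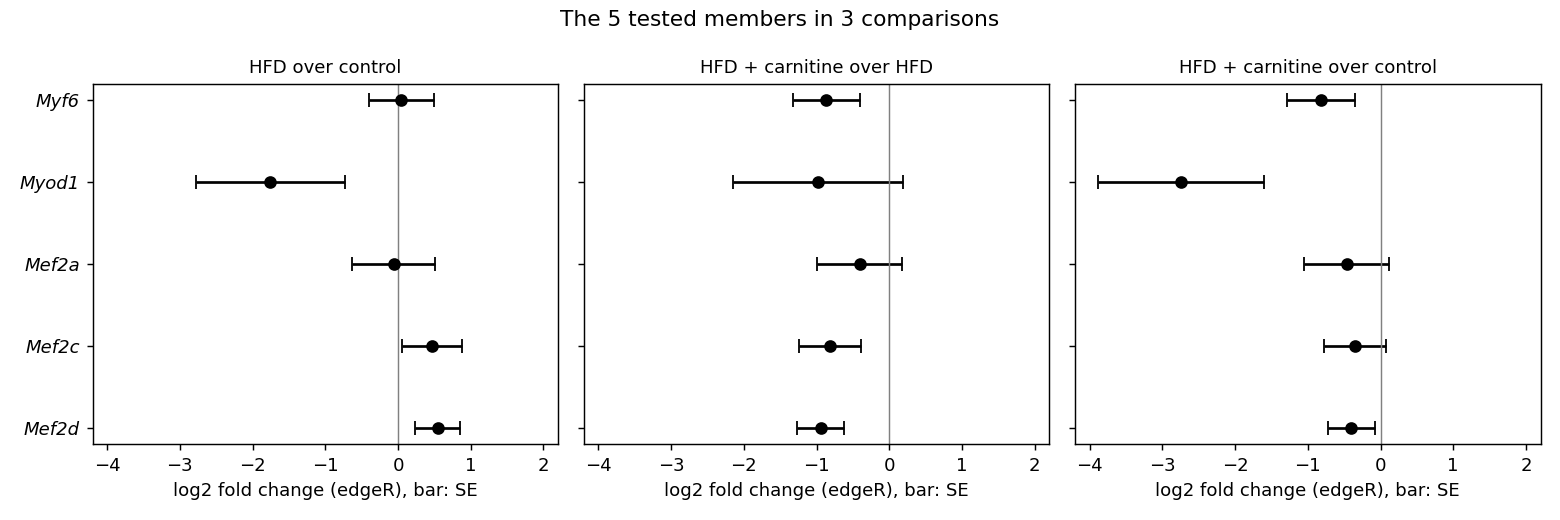
Fitted log2 fold changes (x axis) with SE bars for the 5 tested genes in HFD over control, HFD plus carnitine over HFD, and HFD plus carnitine over control. All 5 lie below 0 in both panels with carnitine, from -0.41 to -0.98 over HFD and from -0.35 to -2.74 over control, and none passed the adjusted threshold.

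HFD plus carnitine and HFD thus did not overlap for 3 of the 5 tested genes, Myf6, Mef2c and Mef2d, each lower with carnitine. Among all tested features 9.82% had such a gap in that direction, and among those with no opposite-strand gene 15.6%. Against control, HFD plus carnitine lay wholly lower for 1 tested gene, Myod1, where 7.18% of tested features did (10.4% of those with no opposite-strand gene). It lay wholly higher for no member, where 6.45% of tested features did. Myog also lay wholly lower than control, but it was not tested, and these shares do not cover features below the filter. No member separated HFD from control, where 7.23% of tested features were wholly higher and 6.86% wholly lower with HFD (4.47% of those with no opposite-strand gene). The comparisons share libraries, so they are not independent of each other.

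Myf6, Mef2c and Mef2d were low in the libraries with a low share of counts on features without an opposite-strand gene. The comparison was repeated with each library scaled to the counts of that class alone. In CPM of the class counts, Mef2d was at 209, 243 and 288 in HFD plus carnitine against 437, 366 and 307 in HFD, and Mef2c at 155, 155 and 205 in HFD plus carnitine against 282, 212 and 221 in HFD. Neither gene overlapped between the 2 groups on this scale, with log2 fold changes of -0.59 for Mef2d (edgeR adjusted p = 0.403) and -0.48 for Mef2c (adjusted p = 0.595). Myf6 did overlap, at 59.6, 112 and 99.6 in HFD plus carnitine and 158, 87.1 and 135 in HFD, with -0.50 (adjusted p = 0.626). The share of all features without overlap was not computed on this scale. With TMM scaling 9.82% of tested features, and 15.6% of those with no opposite-strand gene, were wholly lower. HFD plus carnitine replicate 1 and HFD replicate 2 had the same class share of 13.1%. On the TMM scale the carnitine library had 26.5 CPM of Mef2d against 49.7 in the HFD library, 19.7 CPM of Mef2c against 28.8, and 7.58 CPM of Myf6 against 11.8. Control replicate 3, with a share of 13.0%, had 35.2 CPM of Mef2d, 26.6 of Mef2c and 20.06 of Myf6. That is 1 library per group, with no measure of spread. Without HFD plus carnitine replicate 2, the log2 fold changes over HFD were -0.98 for Myf6, -0.70 for Mef2c and -0.88 for Mef2d, and without its replicate 3 they were -0.88, -0.87 and -0.99. Without control replicate 2, HFD plus carnitine over control gave -1.20 for Myf6 (adjusted p = 0.228), -0.78 for Mef2c (adjusted p = 0.355) and -0.63 for Mef2d (adjusted p = 0.417), and HFD over control gave -0.32, 0.06 and 0.33 (adjusted p = 0.999 for each). The part of the class share in any of these values was not tested.

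**Figure D3:**
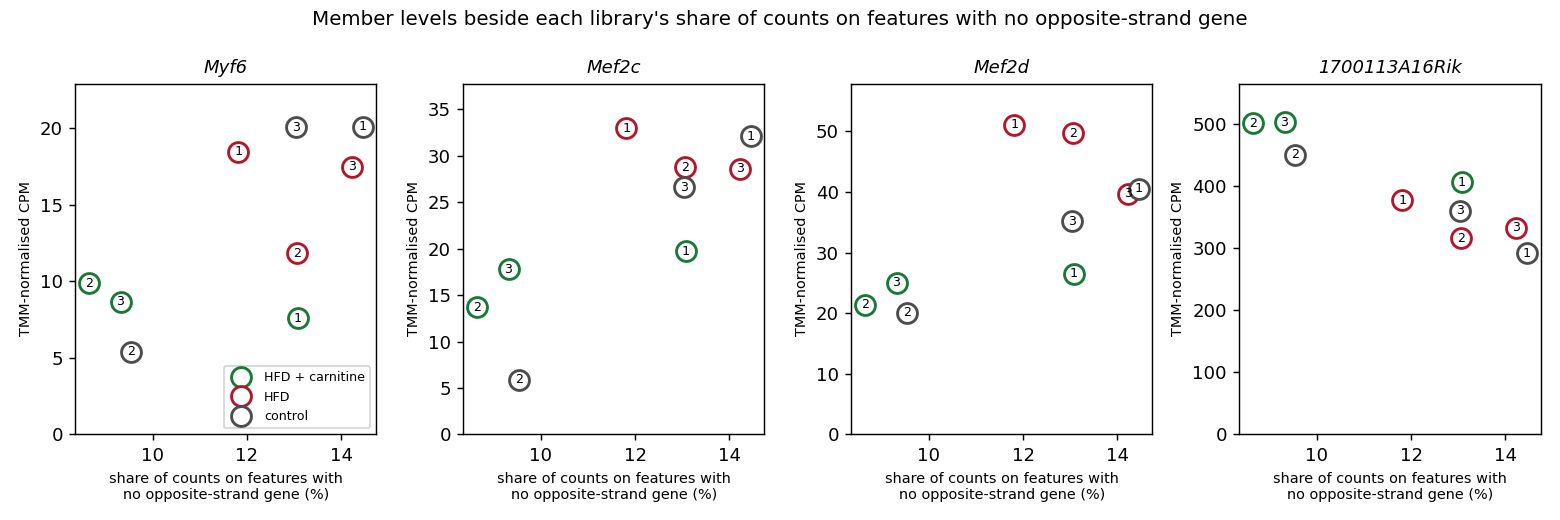
TMM-normalised CPM (y axis) of Myf6, Mef2c, Mef2d and the lncRNA 1700113A16Rik against each library's percentage of counts on features with no opposite-strand gene (x axis, which does not start at 0); numbers are replicates. HFD plus carnitine replicates 2 and 3 and control replicate 2, between 8.65% and 9.55%, are low for the 3 genes and high for the lncRNA. HFD plus carnitine replicate 1 at 13.1% is below HFD replicate 2 at the same share for the 3 genes, which is 1 library per group. Control replicate 3 at 13.0% is below HFD replicate 2 for Mef2c and Mef2d and above it for Myf6.

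Within a library the members kept some proportions more than others. Mef2d had 1.26 to 1.73 counts per Mef2c count in 8 of 9 libraries and 3.42 in control replicate 2. As a description of likeness, profiles of centred log2 CPM over the 9 libraries were compared by their root mean square difference. Myf6 and Mef2c differed by 0.369, Myf6 and Mef2d by 0.382, and Mef2c and Mef2d by 0.382. Myod1 lay at 1.01 to 1.51 from the other tested members, and Mef2a at 0.668 to 1.01. These distances lie on both sides of each gene's median over all features, 1.30 for Myod1 and 0.860 for Mef2a. Neither gene was thus set apart from the members more than from features in general. These points share their library and its depth.

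The features most like each member were ranked on the same measure. Nearest to Mef2d were Nrap (0.145), which encodes a myofibril assembly protein, the Hippo co-activator gene Wwtr1 (0.170) and Crat (0.172), which encodes carnitine acetyltransferase. The nearest to Mef2c were Fbxw11 (0.197), Cluh (0.258) and Slu7 (0.262). Those of Myf6 were Zfp236 (0.197), Tnrc18 (0.218) and the cytolinker gene Plec (0.232). Mef2a had Trpm4 (0.249), Sult1a1 (0.250) and Ccdc12 (0.250), and Myod1 the more distant Noct (0.493), Ptprs (0.528) and Irf2bp1 (0.580). For comparison, the median over all features lay between 0.691 for Mef2d and 1.30 for Myod1. The features named for Mef2d and Mef2a, like those genes themselves, are outside the class with no opposite-strand gene. Those named for Mef2c and Myod1 are inside it, again like the genes themselves. Myf6 is inside it too, with Tnrc18 and Plec but not Zfp236. The part of this class in the likeness was not tested.

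Of 7 lists of genes around these factors, none had a member that passed the adjusted threshold in any pair of groups, so each is given by its counts and median. As the background, 50.6% of all tested features and 69.8% of those with no opposite-strand gene were lower in HFD plus carnitine than in HFD, 50.3% and 61.6% lower than in control, and 49.4% and 40.5% were lower in HFD than in control. Among 21 bHLH partners and inhibitors of the myogenic factors 7 were tested, and their median log2 fold change was -0.59 for HFD plus carnitine over HFD, -0.28 over control and 0.20 for HFD over control. The E protein gene Tcf3 had 4.11 ± 2.82 CPM in HFD plus carnitine, 9.39 ± 0.854 in HFD and 8.11 ± 1.53 in control (SD, n = 3 each). Bhlhe40, a bHLH repressor, went the other way, at 7.17 ± 2.49 CPM in HFD plus carnitine, 1.73 ± 1.17 in HFD and 2.59 ± 2.50 in control; Zeb1, an E-box repressor, was at 3.77 ± 2.25 CPM in HFD plus carnitine, 6.90 ± 1.56 in HFD and 2.80 ± 1.17 in control. The Tcf3 log2 fold change of HFD plus carnitine over HFD was -1.20 (SE 0.56, edgeR adjusted p = 0.391) and that of Bhlhe40 1.97 (SE 0.83, adjusted p = 0.345).

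Of 15 genes that repress MEF2 or retain its repressors, 12 were tested, and 10 of them were lower in HFD plus carnitine than in HFD (median -0.47), where 7 of the 12 have no opposite-strand gene and 69.8% of such features were lower. The deacetylase gene Hdac5 averaged 15.3 ± 0.688 CPM in HFD plus carnitine, 24.7 ± 8.52 in HFD and 27.7 ± 8.81 in control. Ywhag, a 14-3-3 protein gene, had a log2 fold change of -0.96 over HFD (SE 0.40, edgeR adjusted p = 0.340). A list of 28 genes upstream of MEF2 held kinases and phosphatases, with the phosphatase inhibitor gene Rcan1 and the transcription factor genes Nfatc1 and Nfatc3. Of the 28, 15 were tested, Rcan1 and Nfatc1 among them, and all 15 were lower with HFD plus carnitine than with HFD. The median was -0.81, with values from -1.78 for Camk2d to -0.06 for Mapk12. Of the 15, 9 belong to the features with no opposite-strand gene, of which 69.8% were lower. For HFD over control the median of the same 15 was 0.34.

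Camk2b, a calcium-dependent kinase gene of muscle, had the smallest p of that list over the 3 groups at once, ahead of Camk2a and Sik3. It averaged 16.1 ± 2.56 CPM in HFD plus carnitine, 41.6 ± 5.68 in HFD and 30.8 ± 13.1 in control (SD, n = 3 each), with a log2 fold change over HFD of -1.36 (SE 0.35, edgeR adjusted p = 0.178). Over HFD, Camk2a was at -0.79 (SE 0.38, adjusted p = 0.399), and Sik3, a kinase of class II deacetylases, at -1.38 (SE 0.65, adjusted p = 0.395). Of 29 co-activator genes, 18 were tested, with a median of -0.36 over HFD and 12 of them lower. That share is near the 69.8% of features with no opposite-strand gene, a class to which 11 of the 18 belong. Tead1, whose product binds DNA with the Vgll co-factors, was higher at 28.0 ± 4.73 CPM in HFD plus carnitine, against 11.5 ± 1.94 in HFD and 11.4 ± 4.88 in control, and its log2 fold change over HFD was 1.27 (SE 0.40, adjusted p = 0.226). Vgll2 itself gave -1.33 (SE 0.50, adjusted p = 0.299) and Lmod3, an actin nucleator gene, -0.82 (SE 0.34, adjusted p = 0.335).

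The known targets were the best measured list, with 45 of 48 tested. In HFD plus carnitine 40 of the 45 were lower than in HFD (median -0.56) and 41 lower than in control (median -0.58), against 50.6% and 50.3% of all tested features. Of the 45, 19 have no opposite-strand gene, a class in which 69.8% were lower than in HFD and 61.6% lower than in control. For HFD over control the median of the targets was -0.10. Xirp1, an actin-binding gene and MEF2 target, had 20.2 ± 1.63 CPM in HFD plus carnitine, 61.2 ± 37.3 in HFD and 48.8 ± 4.47 in control (SD, n = 3 each). The fitted log2 change was -1.60 over HFD (SE 0.36, edgeR adjusted p = 0.0856) and -1.28 over control (SE 0.36, adjusted p = 0.157). Muscle creatine kinase, Ckm, averaged 3529 ± 292 CPM in HFD plus carnitine, 5467 ± 747 in HFD and 6329 ± 1302 in control, and the fast regulatory light chain gene Mylpf 652 ± 69.5 CPM in HFD plus carnitine, 999 ± 145 in HFD and 1142 ± 166 in control. Over control the log2 fold changes were -0.84 for Ckm (SE 0.22, adjusted p = 0.110) and -0.81 for Mylpf (SE 0.22, adjusted p = 0.138). Of the 12 myofibre markers summed above, 8 are members of this list, so that sum is no separate measurement. The other 4 (Ttn, Neb, Pvalb and Actn3) summed to 2914 to 3850 CPM by library total in HFD plus carnitine, 4745 to 6598 CPM in HFD and 3377 to 6424 CPM in control libraries, and the part of the myofibre share in these counts was not tested.

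Of 24 acetylcholine receptor and denervation-responsive genes 11 were tested, with medians of -0.26 for HFD plus carnitine over HFD and 0.17 for HFD over control. The ubiquitin ligase genes Trim63 and Fbxo32 had their highest means with HFD. Trim63 had 230 ± 81.7 CPM in HFD plus carnitine, 403 ± 202 in HFD and 190 ± 24.6 in control, and its log2 fold change of HFD over control was 1.08 (SE 0.30, edgeR adjusted p = 0.195). Fbxo32 had 237 ± 140 CPM in HFD plus carnitine, 291 ± 92.6 in HFD and 140 ± 35.2 in control, and 1.05 for HFD over control (SE 0.34, adjusted p = 0.400). The muscle sodium channel gene Scn4a had a log2 fold change of -0.98 for HFD plus carnitine over HFD (SE 0.29, adjusted p = 0.226). Of 26 satellite cell and regeneration genes 9 were tested, with medians of -0.53 for HFD plus carnitine over HFD and 0.03 over control.

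In that list Cdh15 was at 0.506 ± 0.876 CPM in HFD plus carnitine, 5.84 ± 3.63 in HFD and 3.92 ± 1.30 in control (SD, n = 3 each; -3.30 over HFD, SE 1.05, edgeR adjusted p = 0.226). The laminin receptor gene Itga7 was at -1.38 (SE 0.51, adjusted p = 0.290) and the junction gene Jam3 at 1.02 (SE 0.53, adjusted p = 0.446). These medians stand beside -0.01 for all tested features and -0.32 for those with no opposite-strand gene in HFD plus carnitine over HFD. Bhlhe40, Zeb1, Tead1, Ckm, Fbxo32, Itga7 and Jam3 have an opposite-strand gene, and the other genes named from the lists have none.

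**Figure D4:**
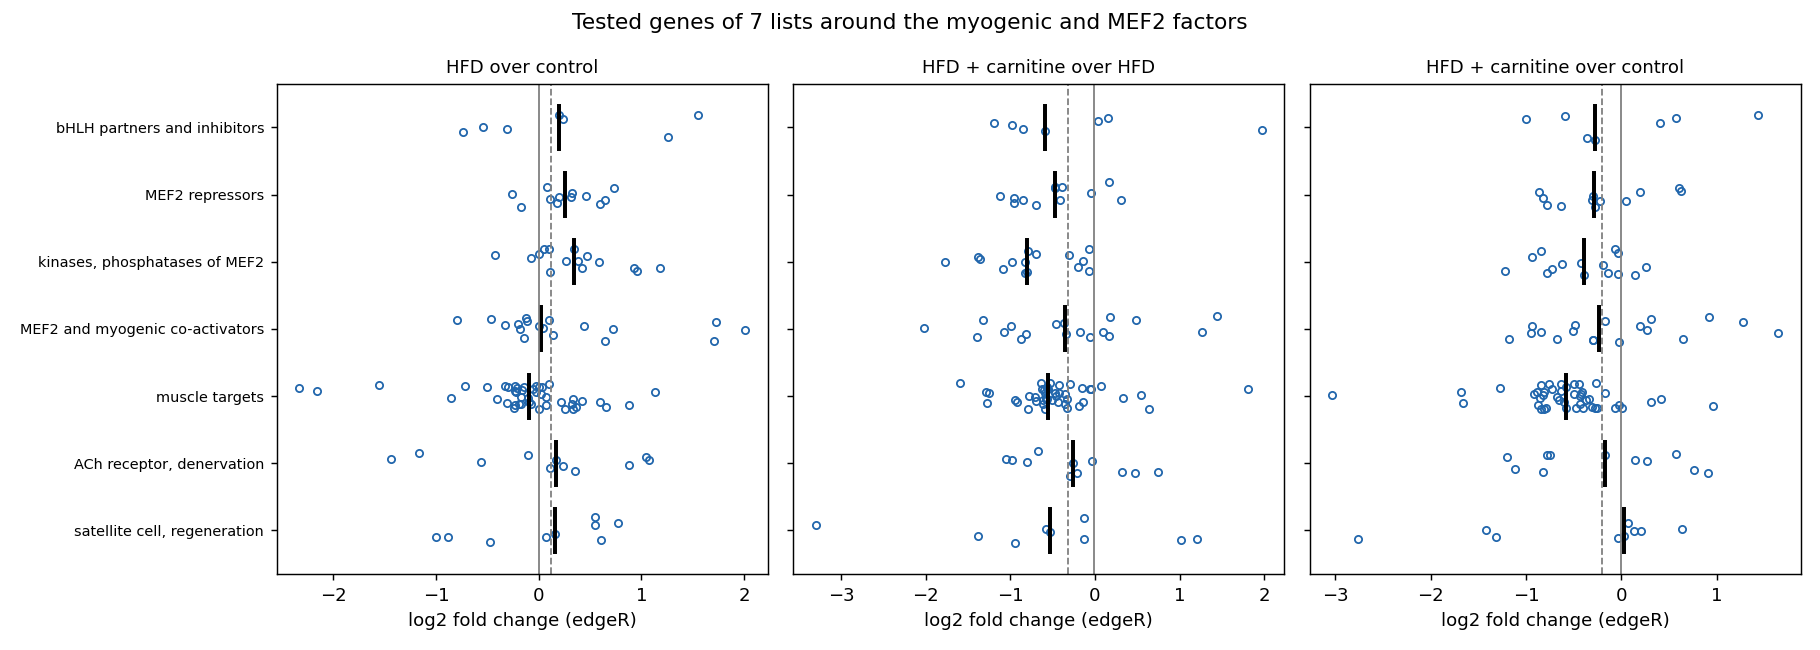
Fitted log2 fold changes (x axis) of the tested genes of each list (rows); circles are genes, black bars list medians, the solid grey line the median of all tested features and the dashed line that of features with no opposite-strand gene. In the middle panel, HFD plus carnitine over HFD, all 15 tested genes of the kinase and phosphatase list lie below 0, with a median of -0.81. That list includes Rcan1 and Nfatc1, which are neither.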

How the data were processed

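RNA extracted from muscle was sequenced in 9 libraries, 3 for each diet group. The authors deposited 1 table with raw read counts and FPKM for 19335 features; libraries were stranded mRNA libraries per the labels' protocols. The submitters' processing notes name HTSeq 0.13.5, HISAT2 2.2.0, Bowtie2 2.4.2, edgeR and Trim Galore 0.6.4, with GRCm39 among the builds; no source used here states the strand setting of HTSeq. FPKM values, computed by the authors per length and library total, were used only to compare levels between genes.

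From the counts, features passing edgeR's filter by group (7523) were tested with its quasi-likelihood test (edgeR 4.0.16, R 4.3.3) after TMM scaling, in 1 fit over the 3 groups, with Benjamini-Hochberg adjustment over all tested features and a threshold of 0.05. CPM are TMM-scaled, except the sums of cell type markers, which are scaled by library total, and a prior count of 2 was used for profile likeness. Pooled ratios have exact 95% intervals, and a count of 3 is the floor. The fit was tested on simulated data. Standard errors are the fold change over the root of its F. A feature has no opposite-strand gene where neither the table nor GENCODE M21 lists one over its span; shared exons and coding sequences came from GENCODE M21 (GRCm38) transcripts, promoters from RefSeq. Alternatives were other scalings, no filter, DESeq2 1.42.0, limma-voom 3.58.1, the compared groups alone, each library left out, and the replicate number as a block. The genes and lists were chosen with earlier results of these data known. Named are all 7 genes, opposite-strand genes, neighbours, the 3 nearest profiles of each tested gene (predicted genes skipped), and, of each list without a call, the 3 tested genes with the smallest p over the 3 groups. One gene that this rule names is not reported here.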

Additional observations from a re-analysis of the deposited data

How the results depend on the processing

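No member with an adjusted p passed the threshold in the 4 tests under the settings run. DESeq2 gave none for Myod1 in any of them, nor for Myf6 and Mef2a in the comparisons with carnitine and Mef2a over the 3 groups, and Myod1 was not tested in the fits of the compared groups alone that include carnitine. Over the planned settings the log2 fold change of HFD plus carnitine over HFD lay between -1.14 and -0.59 for Mef2d (adjusted p 0.0974 to 0.643), and it stayed at or below -0.48 for Mef2c and -0.50 for Myf6. Some signs turned, all of values far from the threshold. Myf6 in HFD over control was -0.014 when scaled by features with no opposite-strand gene and -0.32 to 0.31 with 1 library left out (below 0 without HFD replicate 1 or 3 or control replicate 2). Mef2a in HFD over control was 0.11 with library totals in place of TMM and -0.094 to 0.0034 with 1 library left out (above 0 without control replicate 3). With 1 library left out, Myod1 in HFD plus carnitine over HFD ranged from -1.78 to 0.57, Mef2a from -1.47 to 0.038 over HFD and from -1.54 to 0.0054 over control, and Mef2c over control from -0.78 to 0.044; the libraries that turn these are named with each gene. The cause of these turns was not tested. The mean level of Mef2a in HFD was 8.43 CPM by library totals.

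Counts of all features called moved more. HFD plus carnitine against HFD (4 called) gave 10 without TMM, 26 with no filter, 53 by DESeq2, 0 in a fit of the compared groups alone (3 libraries each) and 1 to 84 with 1 library left out, 84 without HFD plus carnitine replicate 1 and 1 without its replicate 2 or HFD replicate 1. HFD plus carnitine against control (32) gave 18, 60, 79 and 10 in these settings, 14 when scaled by features with no opposite-strand gene, 21 by limma-voom, and 5 to 86, lowest without HFD plus carnitine replicate 2 and highest without its replicate 1. HFD against control (4) gave 0, 68, 33 and 40, then 2 by that scaling, 8 by limma-voom, and 0 to 13, highest without control replicate 1. The 3 groups at once (27) gave 8 without TMM, 125 with no filter, 111 by DESeq2, and 9 to 147, lowest without control replicate 3 and highest without HFD plus carnitine replicate 1. The cause was not tested.

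With the replicate number as a block, 3, 31 and 10 features were called for HFD plus carnitine against HFD, HFD plus carnitine against control and HFD against control, 29 for the 3 groups, and 0 members. Same-numbered libraries correlated between -0.16 and 0.14 in their deviations, and a library was closest to its own number in 4 of 18 cases. With 3 libraries per group this check is weak, so it does not settle whether the numbers pair the libraries. At 2315985 to 3773649 counts per library, Myog and Myf5 are below what the test can read, and Myod1 is near that limit.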
